A study of Mus musculus with 4 samples.

Results

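DNA transposon fossils are the remains of cut-and-paste elements in the mouse genome, and their RNA was followed here in wild-type (WT) and Pim3-/- embryonic stem cells (ESCs). The group was defined by name: all subfamilies of the transposable element (TE) count table whose names begin with Charlie, Tigger, Arthur, Zaphod, Cheshire, Looper, Kanga, URR1 or MARNA. The rule matched 89 of the 1072 subfamilies in the table. Of these, 51 belong to the hAT superfamily (44 of the hAT-Charlie branch, named Charlie, Cheshire and URR1, and 7 of the hAT-Tip100 branch, named Arthur and Zaphod) and 29 are Tigger elements. The other 9 are 7 Kanga subfamilies, MARNA and Looper. RNA-seq had been performed on 2 WT samples and 2 Pim3-/- clones of mouse E14 ESCs (strain listed as 12910la), all grown on gelatin in serum medium with LIF, the cytokine that holds ESCs undifferentiated. Pim3, a serine/threonine kinase gene, had been disrupted with CRISPR/Cas9 and guide RNAs against a pair of its exons, and each Pim3-/- library stands for a single clone. WT and Pim3-/- cells differ in genotype and in this clonal history, which cannot be told apart.

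A DNA transposon moves when its transposase cuts the element out at its terminal inverted repeats and inserts it elsewhere. The hAT superfamily is named after hobo, Ac and Tam3, and its mammalian branches include Charlie and Tip100. Tigger elements are relatives of the fly transposon pogo within the Tc1/mariner superfamily, as are Kanga (the Tc2 branch) and MARNA (the mariner branch), while Looper is a piggyBac element. In the mouse lineage these families stopped moving long ago, and their copies are decayed fragments scattered through introns and between genes. A read on such a copy can therefore stem from any transcript that runs through it. A subfamily count adds up all genomic copies, so counts are compared between libraries and not between subfamilies as expression per copy.

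The TE table held from 546500 to 821065 counts per library and the gene table from 22029427 to 25668307. The WT libraries held 23601 and 26515 TE counts per 1e6 gene counts and the Pim3-/- libraries 35865 and 36699. Levels are given in CPM, counts per 1e6 counts of the TE table after scaling by TMM factors, and log2 fold changes are Pim3-/- over WT. TMM scaling within the TE table put the median log2 fold change of all tested TEs at 0.01. Scaling by the gene table (its totals multiplied by its TMM factors) raised this median by 0.26, to 0.27, and moves each value below by about as much. The count of Pim3 (4392 and 4953 in WT, 4970 and 4804 in Pim3-/-) did not differ past the threshold (adjusted p = 0.251 in edgeR), so it is no check of the labels. All 10 ESC markers checked were detected in each group, with Pou5f1, the gene of OCT4, at 2244 CPM of the gene table in WT and 1029 CPM in Pim3-/-. Of these, 1 was higher in Pim3-/- and 4 were lower, beside 17.6% higher and 16.2% lower of all 18444 tested genes. For other cell types, all 8 primitive endoderm markers were higher (summed level 4.49 and 6.66 CPM in WT, 44.0 and 25.4 CPM in Pim3-/-), as were 6 of 7 markers of 2-cell-like cells (17.9 and 13.3 CPM, 145 and 41.0 CPM) and 2 of 7 trophoblast markers (65.5 and 67.5 CPM, 52.1 and 85.0 CPM). None of 7 fibroblast markers was called (20.3 to 25.4 CPM), but only Col1a1 and Thy1 had enough counts to be tested. Thy1 made up most of this level, and Lum was at 0 in each library. Among the trophoblast markers Cdx2 and Elf5 were not tested. The part of such cells in the TE counts was not tested, and in bulk RNA fewer cells of a type and less RNA per cell cannot be told apart.

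Few fossils differed between the groups on the scale of the TE table. After filtering on low counts, 67 of the 89 subfamilies could be tested. Called at an adjusted p below 0.05 (quasi-likelihood test of edgeR, Benjamini-Hochberg over all 828 tested TEs), 1 was higher in Pim3-/- ESCs (Arthur1A) and 1 was lower (Tigger9a), while 8.70% of all tested TEs were called, 3.38% higher and 5.31% lower. At an unadjusted p under 0.05 there were 7 higher and 6 lower, beside 26.0% of all tested TEs in either direction. All 67 tested members together had a median of -0.01, and 40 of them lay within 0.5 of 0. With either WT library left out, no member was called by edgeR, and neither was any of the 828 TEs, of which 54 higher and 55 lower (without WT replicate 1) and 55 and 71 (without WT replicate 2) had an unadjusted p under 0.05. The Wald test of DESeq2 called no member and 15 higher and 34 lower of all TEs. It gave unadjusted p-values under 0.05 to 2 higher and 3 lower members, beside 53 higher and 67 lower of all 828 TEs. No adjusted p was given to 14 members, beside 113 of all TEs. With the gene table's scaling and the same prior degrees of freedom, 2 members were higher (Arthur1A and Tigger1) and 0 lower, beside 5.80% and 2.17% of all tested TEs. Unadjusted edgeR p-values under 0.05 were given to 14 higher and 2 lower members, beside 207 higher and 38 lower of all 828 TEs.

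URR1A and URR1B, rodent repeats of the hAT-Charlie branch, made up most of the signal and were level. URR1A had 1806 and 2468 WT counts against 3160 and 3239 Pim3-/- counts. In CPM the groups overlapped, with 3542 and 3842 in WT and 3701 and 3669 in Pim3-/-. The fitted log2 fold change was -0.00, with a standard error of 0.08 and an adjusted p of 0.980 in edgeR. URR1B had 1727 and 2312 WT counts against 2859 and 3166 Pim3-/- counts, or 3387 and 3599 CPM against 3348 and 3586 CPM, with a log2 fold change of -0.01 (standard error 0.08). Both log2 values became 0.26 with the gene table's scaling. The pair held 51.9% (95% exact binomial interval 50.7 to 53.1) and 53.9% (52.8 to 54.9) of the members' counts in WT and 53.1% (52.2 to 54.0) and 52.5% (51.7 to 53.4) in Pim3-/-, intervals that cover counting error only. The ratio of URR1A to URR1B was between 1.02 and 1.11 in each of the 4 libraries.

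**Figure D1:**
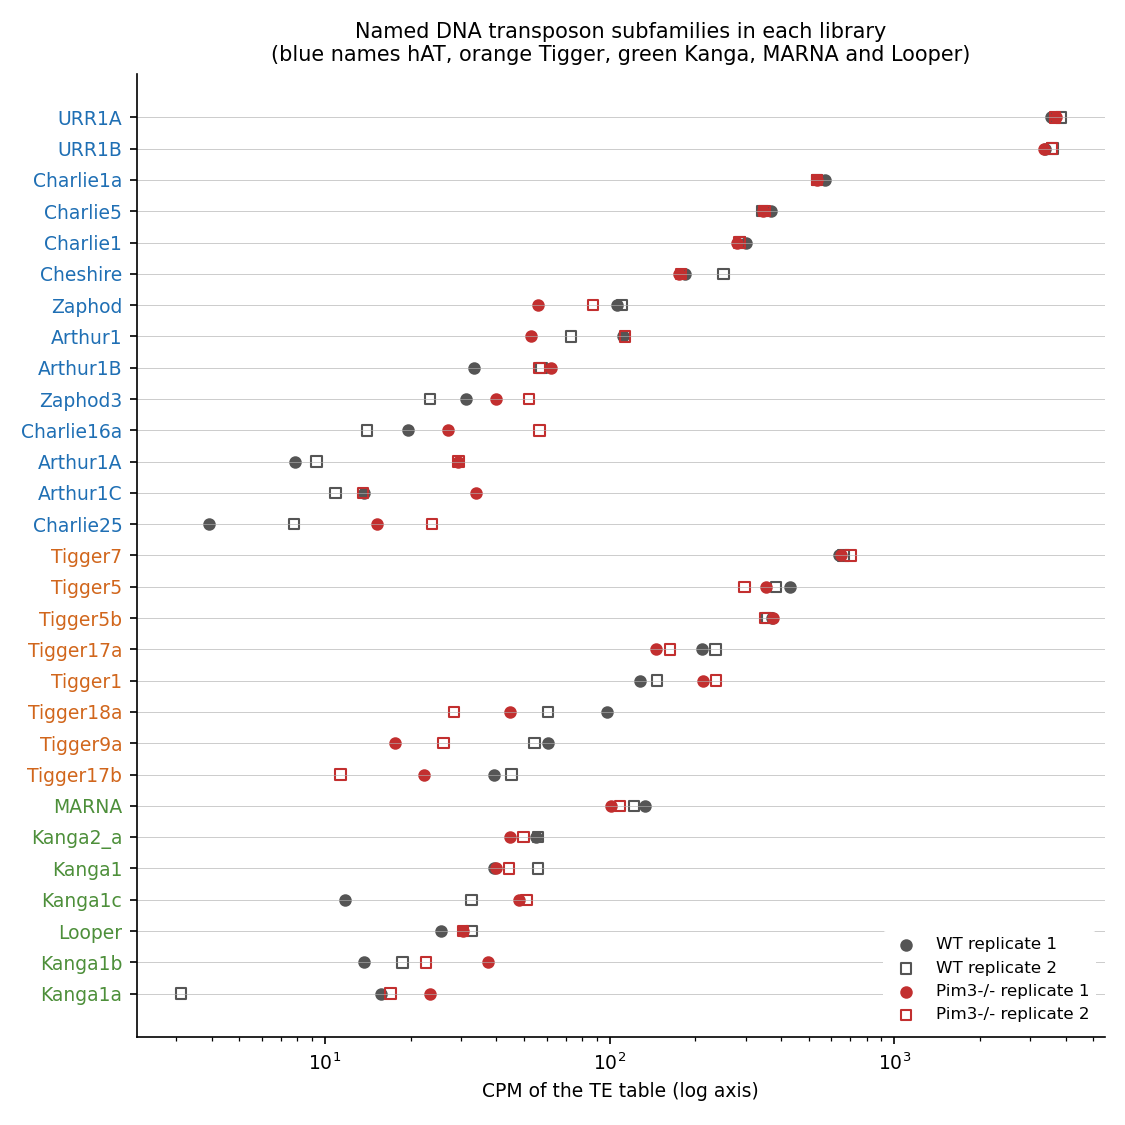
Level of each named subfamily in CPM of the TE table (log axis) in the 4 libraries, black for WT and red for Pim3-/-, filled circles for replicate 1 and open squares for replicate 2. The 4 symbols of URR1A and URR1B nearly coincide between 3348 and 3842 CPM, whereas those of Arthur1A and Tigger9a separate by group.

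Next to URR1, the hAT subfamilies with the most counts were Charlie1a, Charlie5 and Charlie1, all of the hAT-Charlie branch. Charlie1a had 569 and 536 CPM in WT and 536 and 535 CPM in Pim3-/-. Charlie5 had 369 and 344 CPM against 344 and 350 CPM, and Charlie1 had 302 and 286 CPM against 280 and 286 CPM. Their log2 fold changes were -0.04, -0.04 and -0.06, each with a standard error of 0.12 to 0.15, so each value was smaller than its standard error. Cheshire, of the same branch, had 184 and 251 CPM in WT and 175 and 178 CPM in Pim3-/-, with a log2 fold change of -0.31 (standard error 0.20).

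Larger values were found among hAT subfamilies with few counts. Arthur1A, a Tip100 element, had 4 and 6 WT counts against 25 and 26 Pim3-/- counts, or 7.84 and 9.34 CPM against 29.3 and 29.5 CPM. The groups did not overlap, and edgeR gave 1.74 on the log2 scale (standard error 0.43, adjusted p = 0.0439). Arthur1A had WT counts under the filter's minimum of 10 and entered the test only through Pim3-/-, where it is high. It was thus selected toward a higher call and a lack of overlap. Over its 11 alternatives the log2 value ran from 1.66 to 2.00 and the adjusted p from 0.00242 to 0.349, the latter without WT replicate 1. Charlie25 had 2 and 5 WT counts against 13 and 21 Pim3-/- counts (log2 fold change 1.66, standard error 0.56, adjusted p = 0.106), and Charlie16a had 10 and 9 counts against 23 and 50 (1.33, standard error 0.48, adjusted p = 0.130). Neither passed the test, although the groups did not overlap. Both passed the filter only with their Pim3-/- counts, where they are high, as their WT counts alone would not have passed. They too were selected toward higher values and a lack of overlap. The log2 value of Charlie25 ran from 1.30 without Pim3-/- replicate 2 to 2.27 without WT replicate 2. That of Charlie16a was 0.70 without Pim3-/- replicate 2 and 1.76 without Pim3-/- replicate 1.

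The remaining Tip100 elements had values on both sides of 0, and none passed the test. Zaphod had 106 and 110 CPM in WT and 56.2 and 87.2 CPM in Pim3-/- (log2 fold change -0.59, standard error 0.28), and Zaphod3 had 31.4 and 23.4 CPM against 39.8 and 52.1 CPM (0.76, standard error 0.35). Zaphod was at -0.94 without Pim3-/- replicate 2 and at -0.31 without Pim3-/- replicate 1. Arthur1 had 112 and 73.2 CPM in WT and 52.7 and 113 CPM in Pim3-/-, so that the spread within each group exceeded the difference between them. Arthur1B (0.36, standard error 0.33) and Arthur1C (0.95, standard error 0.56) also overlapped between groups, and Arthur1C rested on Pim3-/- replicate 1, with 29 counts there, 12 in Pim3-/- replicate 2 and 7 in each WT library. Without that replicate its log2 fold change was 0.16. Arthur1C passed the filter only through its Pim3-/- counts, so its value carries that selection.

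Tigger subfamilies with many counts had values on both sides of 0, and none of those named here passed the test. Tigger7 had 641 and 663 CPM in WT and 648 and 701 CPM in Pim3-/- (log2 fold change 0.05, standard error 0.12). Tigger5b had 371 and 358 CPM against 376 and 352 CPM (-0.00, standard error 0.14), while Tigger5 had 429 and 385 CPM against 354 and 298 CPM (-0.32, standard error 0.15, adjusted p = 0.230). Tigger17a had 212 and 235 CPM in WT and 145 and 163 CPM in Pim3-/-, without overlap (-0.54, standard error 0.18, adjusted p = 0.106). Tigger17c, with 85 and 90 WT counts against 139 and 213 Pim3-/- counts, was above 0 (0.40, standard error 0.23), with overlapping groups in CPM. Tigger1 had the highest value of these rows, with 65 and 94 WT counts against 181 and 209 Pim3-/- counts, or 127 and 146 CPM against 212 and 237 CPM. Its log2 fold change of 0.71 (standard error 0.19) missed the threshold with an adjusted p of 0.0501 in edgeR and passed it with the totals of the TE table (0.0267).

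The lowest log2 fold changes of all members were also from Tigger elements. Tigger9a had 31 and 35 WT counts against 15 and 23 Pim3-/- counts, or 60.8 and 54.5 CPM against 17.6 and 26.1 CPM. The groups did not overlap, and edgeR gave -1.39 on the log2 scale (standard error 0.34, adjusted p = 0.0438). Over its 12 alternatives the log2 value ran from -1.70 to -1.12 and the adjusted p from 0.00323 to 0.357, again highest without WT replicate 1. Tigger17b had 39.2 and 45.1 CPM in WT and 22.3 and 11.3 CPM in Pim3-/- (-1.33, standard error 0.41, adjusted p = 0.0817), and Tigger18a had 98.1 and 60.7 CPM against 44.5 and 28.3 CPM (-1.11, standard error 0.36, adjusted p = 0.0992). Both had non-overlapping groups without passing the test. Tigger17b passed the filter only with its WT counts, where it is high. Without Pim3-/- replicate 1 Tigger17b was at -1.89 and Tigger18a at -1.46, and without Pim3-/- replicate 2 they were at -0.93 and -0.81.

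Among the Tc1/mariner relatives Kanga and MARNA and the piggyBac element Looper no subfamily passed the test. Kanga1c had 6 and 21 WT counts against 41 and 45 Pim3-/- counts (log2 fold change 1.10, standard error 0.43, adjusted p = 0.153), Kanga1b 7 and 12 against 32 and 20 (0.86, standard error 0.43) and Kanga1a 8 and 2 against 20 and 15 (1.18, standard error 0.62). Kanga1c, Kanga1b and Kanga1a passed the filter only with their Pim3-/- counts, where they are high, and were thus selected toward higher values. These values rested on few counts, and without WT replicate 1 that of Kanga1c was 0.62 and that of Kanga1a was 2.66. Without WT replicate 2 they were 2.06 and 0.36. Kanga1 (-0.20, standard error 0.32) and Kanga2_a (-0.23, standard error 0.29) were close to 0. MARNA had 133 and 121 CPM in WT and 101 and 109 CPM in Pim3-/- (-0.28, standard error 0.21). Looper, the single piggyBac entry, had 25.5 and 32.7 CPM against 30.5 and 30.6 CPM (0.06, standard error 0.34).

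The size of a change went with the number of counts behind it. The 20 members with a mean of at least 100 CPM had log2 fold changes from -0.54 to 0.71 and a median standard error of 0.18, and none reached a 2-fold change. Of the 39 members under 50 CPM, 10 reached it, with values from -1.39 to 1.74 and a median standard error of 0.38. In CPM, 18 members lay without overlap above WT and 21 below, of 67, beside 29.2% of all tested TEs in each direction. Both the 2-fold values and these counts include rows that passed the filter only with the group where they are high. Examples are Arthur1A, Charlie25, Charlie16a and Kanga1c (Pim3-/-) and Tigger17b (WT), so the spread carries that selection. The libraries of one group differed by a median of 0.31 (WT) and 0.19 (Pim3-/-) on the log2 scale of CPM plus 1 over the 67 members, and by 0.20 in both groups over all tested TEs.

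**Figure D2:**
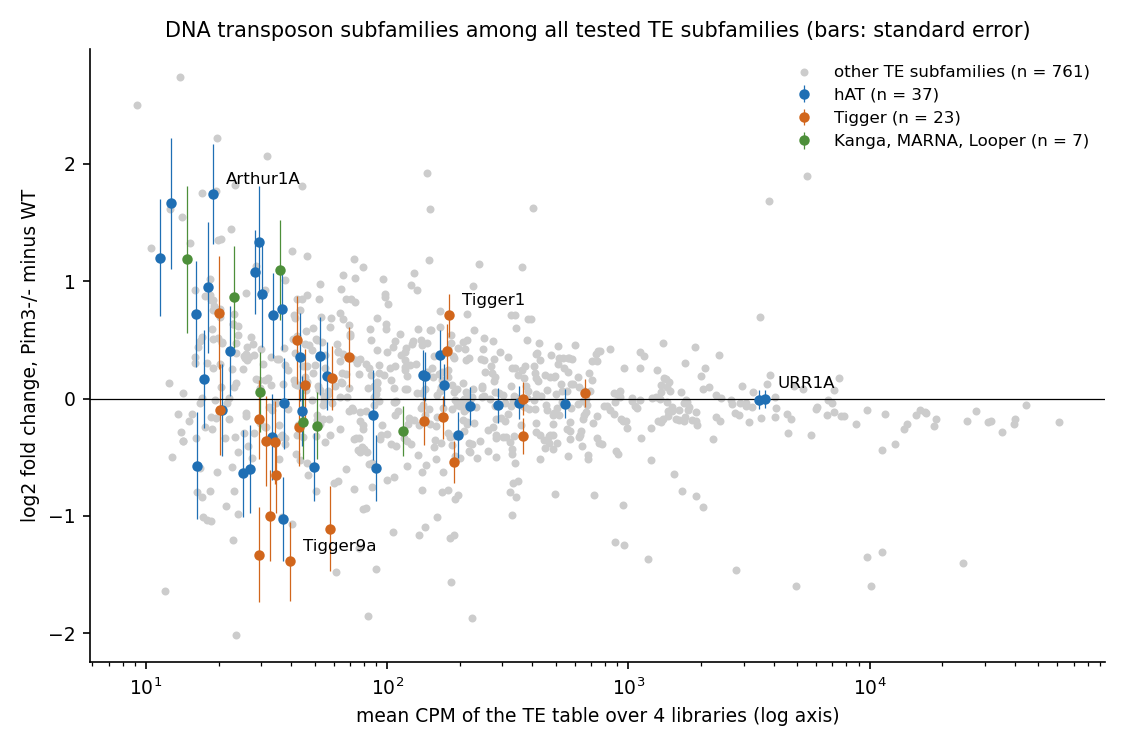
Log2 fold change (Pim3-/- over WT, TE-table scaling) against the mean CPM of the 4 libraries (log axis) for the 67 tested members, with standard errors as bars, and for the other tested TEs in grey. The members with at least 100 CPM stay between -0.54 and 0.71, and the spread widens below 50 CPM, where Arthur1A (1.74) and Tigger9a (-1.39) lie.

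To compare hAT with Tigger elements, counts were added up over all members of each, tested or not. hAT rows held 5149 and 6780 WT counts against 8708 and 9341 Pim3-/- counts, and Tigger rows 1502 and 1881 against 2340 and 2536. The log2 ratio of hAT to Tigger counts, which no scaling can change, was 1.78 and 1.85 for WT against 1.90 and 1.88 for Pim3-/-. The groups did not overlap, with 1.81 ± 0.05 (SD, n = 2) against 1.89 ± 0.01 (SD, n = 2), a difference of 0.07 (exact two-sided permutation test, p = 0.33, the smallest p that 2 libraries against 2 allow). Without URR1A and URR1B the ratio was 0.11 and 0.09 in WT and 0.20 and 0.21 in Pim3-/-, a difference of 0.11. With 1 library left out the difference over all rows lay between 0.04 and 0.11.

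Added up by branch and fitted together with the other TEs, no branch passed the test in edgeR, while 8.74% of the 767 rows of that table were called. For hAT-Charlie the log2 value was 0.01 (standard error 0.06), for hAT-Tip100 it was 0.10 (standard error 0.18) and for Tigger -0.06 (standard error 0.08). The Kanga sum was at 0.39 (standard error 0.18, adjusted p = 0.228), with 75 and 112 WT counts against 176 and 189 Pim3-/- counts. Row by row, 19 of the 37 tested hAT subfamilies were above 0 with a median of 0.12 (0.00 to 0.16 with 1 library left out, lowest without Pim3-/- replicate 2), and 8 of the 23 tested Tigger subfamilies with a median of -0.18, beside 416 of the 828 tested TEs. Scaled by the gene table instead, 29 hAT and 14 Tigger subfamilies were above 0, beside 631 of all TEs, so that the median of Tigger changed sign, to 0.09. Among the tested hAT subfamilies 12 were higher without overlap and 9 lower, and among the Tigger subfamilies 3 and 10, beside 29.2% of all tested TEs in each direction. These medians and counts include rows that passed the filter only with the group where they are high. Examples are Arthur1A, Arthur1C, Charlie16a and Charlie25 (Pim3-/-) and Tigger17b (WT). With at least 10 counts in every library the medians were -0.0075 for hAT and -0.15 for Tigger.

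Relative to the gene table, fossils and the TEs as a whole were both higher in each Pim3-/- library than in either WT library. Members held 1.25% (95% exact binomial interval 1.22 to 1.28) and 1.30% (1.28 to 1.33) of the TE counts in WT and 1.38% (1.36 to 1.41) and 1.51% (1.48 to 1.53) in Pim3-/-, so the share was 1.13-fold higher in Pim3-/-. These intervals cover counting error only and not the spread between libraries. In counts per 1e6 gene counts they reached 294 and 346 in WT and 495 and 553 in Pim3-/-, or 320 ± 36.5 (SD, n = 2) against 524 ± 41.1 (SD, n = 2), a ratio of 1.64. The whole TE table had a ratio of 1.45 on this scale, the hAT rows one of 1.65 and the Tigger rows one of 1.57. DNA transposons outside the name rule had 1.64, with a 1.13-fold higher share of the TE counts, so neither value is particular to the members. URR1A and URR1B, level in CPM, had 1.63 and a 1.13-fold higher share. Shares use the plain totals of the TE table, without its TMM factors (0.93 and 0.94 in WT, 1.04 and 1.09 in Pim3-/-). The ratios per gene count use the plain totals of the gene table. With the totals multiplied by its TMM factors, an alternative added after seeing the data, the ratio was 1.20 for all members, 1.21 for hAT, 1.15 for Tigger and 1.06 for the whole TE table. The groups did not overlap in any of these sums, and the exact two-sided permutation test gave its smallest possible p of 0.33 for each. MERVL-int, the internal part of the MuERVL retrovirus that marks 2-cell-like cells, had a log2 fold change of 1.89 in the same TE table, above each of the 67 tested members.

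**Figure D3:**
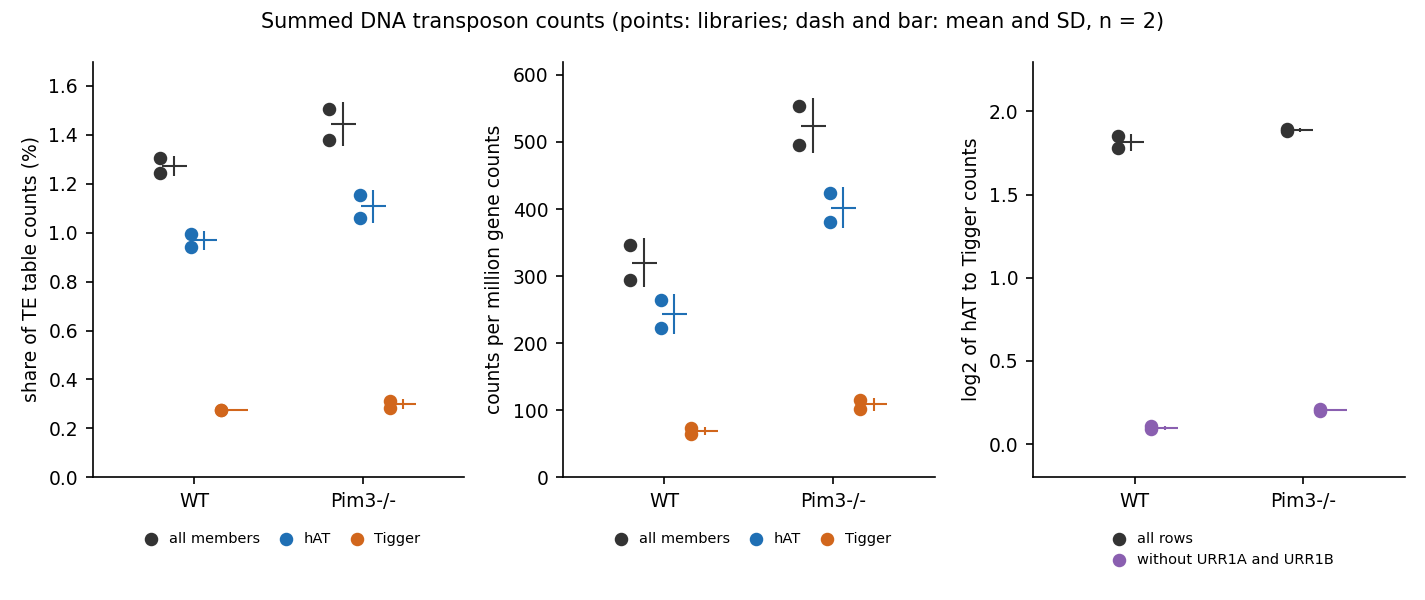
Summed counts of all members, hAT rows and Tigger rows as a percentage of TE counts (left) and as counts per 1e6 gene counts, by plain gene totals (middle), and the log2 ratio of hAT to Tigger counts (right), with 1 point per library and the mean with SD of 2 libraries beside it. In counts per 1e6 gene counts the members lie at 294 and 346 in WT and at 495 and 553 in Pim3-/-, while the hAT to Tigger ratio differs by only 0.07 on the log2 scale.

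Subfamilies that share a name stem are related in sequence, and reads may be split between them, so they were set side by side. There were 14 stems with more than 1 tested subfamily, 36 subfamilies in all. In 5 stems (URR1, Charlie1, Charlie4, Charlie13 and Tigger5) all members lay on one side of 0, and in 5 the members spanned at least 1 on the log2 scale. Charlie1, Charlie1a and Charlie1b lay between -0.07 and -0.04. In contrast, the stem Tigger17 ran from -1.33 (Tigger17b) to 0.40 (Tigger17c), with Tigger17 at -0.65 and Tigger17a at -0.54. Tigger9b and Tigger9a had nearly equal WT counts (29 and 35, 31 and 35), whereas in Pim3-/- Tigger9b had 51 and 58 and Tigger9a 15 and 23. The stem Arthur1 ran from -0.14 to 1.74, Charlie17 from -0.64 to 0.89 and Kanga1 from -0.20 to 1.18. These stems were picked for their range, so the differences within them are given without a test.

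**Figure D4:**
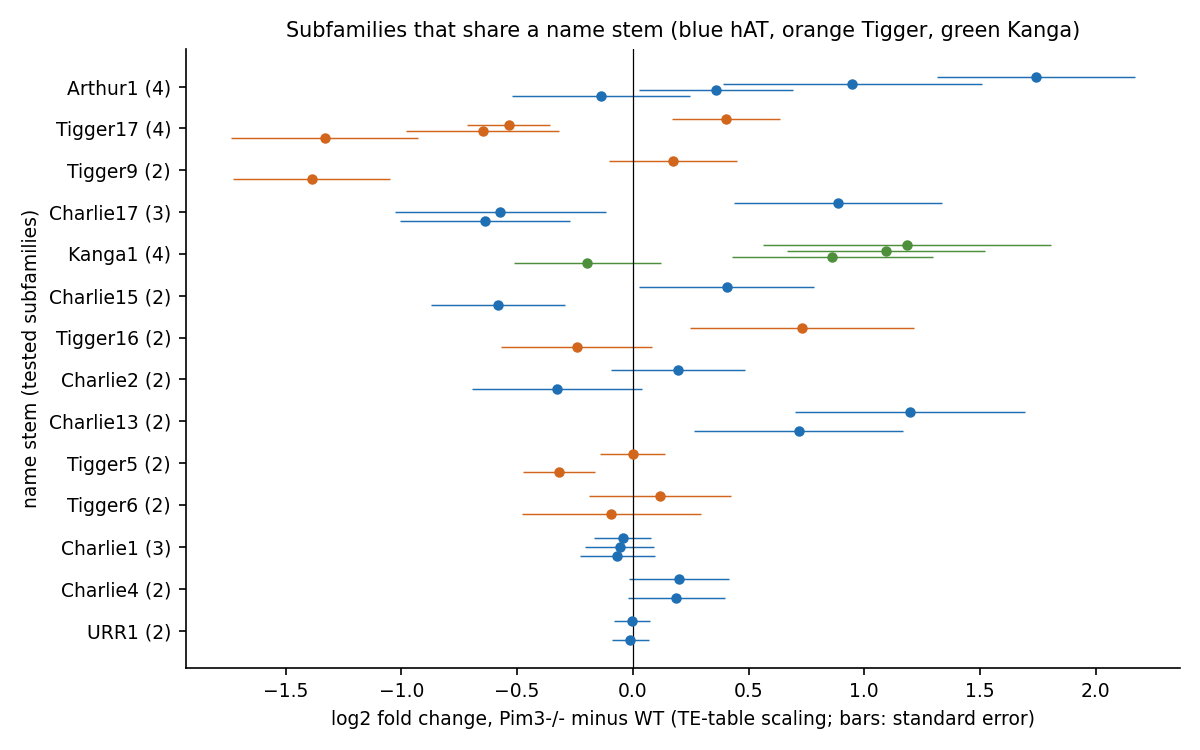
Log2 fold change (Pim3-/- over WT, TE-table scaling) with its standard error for the 36 tested subfamilies in the 14 name stems, ordered by the range within the stem. The points of URR1, Charlie1 and Charlie4 lie close together within each stem, and those of Arthur1 and Tigger17 spread over 1.88 and 1.74.

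The 22 members that were not tested had at most 20 counts in any library. They were 14 hAT, 6 Tigger and 2 Kanga subfamilies. Of these, 6 had no count in WT, which allows up to 3 counts per library (5.88 and 4.67 CPM). In Pim3-/-, Kanga1d reached 5 and 6 counts and Charlie11 reached 3 and 4. The other 4 have _Mars in their names and together had 7 counts in the 4 libraries.

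DNA transposons outside the name rule, mostly listed as MER, were tested in the same fit. Of 94 such subfamilies 70 passed the filter, edgeR called 2 higher and 3 lower, beside 3.38% and 5.31% of all tested TEs, and their median log2 fold change was 0.14, against 0.01 for all tested TEs. The 12 tested Tigger relatives had a median of 0.07, and 2 of them were lower, MER44B with 443 and 375 CPM in WT and 221 and 249 CPM in Pim3-/- (log2 fold change -0.80, standard error 0.16, adjusted p = 0.0227) and MER127 with 45.1 and 31.1 CPM against 9.37 and 9.06 CPM (-2.01, standard error 0.42, adjusted p = 0.0244). The 49 hAT relatives had a median of 0.33, and the Tip100 relative MamTip1 was lower, with 82.4 and 134 CPM in WT and 51.5 and 38.5 CPM in Pim3-/- (-1.28, standard error 0.32, adjusted p = 0.0478). MER121 was higher, with 3 and 9 WT counts against 28 and 36 Pim3-/- counts (1.82, standard error 0.46, adjusted p = 0.0478). MER91C, another Tip100 relative, was also called higher, with 2 counts in each WT library and 16 and 26 in Pim3-/-, a ratio of 6.97 with a 95% counting interval from 2.53 to 26.7. MER121 and MER91C had under 10 counts in each WT library and passed the filter only through Pim3-/-, where they are high. MER127 had 8 counts in each Pim3-/- library and passed only through WT, where it is high. The calls of MER121, MER91C and MER127 and this interval carry that selection.

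Some transposases were taken over by their hosts and became cellular genes. Of 24 symbols listed for such genes, 23 were in the gene table and 20 could be tested. Here edgeR called 2 higher and 1 lower, while 33.8% of the 18444 tested genes were called, 17.6% higher and 16.2% lower. Both higher genes descend from pogo and Tigger transposases. Jrk (chr15:74702301-74709535 of GRCm38, minus strand), a DNA-binding protein gene related to Cenpb, had 57 and 104 WT counts against 438 and 278 Pim3-/- counts (log2 fold change 1.84, standard error 0.33, adjusted p = 0.00792). Pogk (chr1:166384622-166409863, minus strand), which joins a KRAB domain to a pogo transposase, had 84 and 77 counts against 172 and 244 (1.03, standard error 0.31, adjusted p = 0.0377). Without WT replicate 1 their adjusted p-values were 0.106 and 0.189, and without WT replicate 2 they were 0.0560 and 0.293, again from edgeR. In these fits 25 higher and 5 lower of all genes, and 90 and 105, were called.

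Zbed5 (chr5:129895723-129903623, plus strand), which descends from a hAT transposase, was lower, with 403 and 449 WT counts against 334 and 247 Pim3-/- counts (log2 fold change -0.89, standard error 0.22, adjusted p = 0.0193). Without WT replicate 1 its adjusted p was 0.222, and without WT replicate 2 0.138. With the totals of the gene table it was -0.44, with an adjusted p of 0.153 in edgeR. The genes of the list with the most counts were Pogz, Cenpb and Zmym4. Pogz, a pogo-derived chromatin protein gene, had 46.3 and 54.2 CPM of the gene table in WT and 65.0 and 82.8 CPM in Pim3-/- (0.56, standard error 0.19, adjusted p = 0.0547). Cenpb, whose product binds centromeric satellite DNA, had 47.4 and 45.7 CPM against 61.7 and 60.7 CPM (0.39, standard error 0.15, adjusted p = 0.0837), and Zmym4, a zinc finger gene of Crypton origin, was at 0.30 (standard error 0.18). Of the 8 tested pogo and Tigger derivatives 7 were above 0, with a median of 0.46, and of the 6 hAT derivatives 5, with a median of 0.31. Over all 18444 tested genes 9783 were above 0, with a median of 0.07. Above 0 were also 2 of 2 PiggyBac derivatives, 1 of 2 Crypton derivatives and 0 of 2 Harbinger derivatives. Gtf2ird2, a transcription factor gene fused to a Charlie8 transposase, was at 0.30 (standard error 0.37), and the Charlie8 subfamily itself was at 0.37 (standard error 0.21). Tigd4, Rag1 and Rag2, the last a pair of Transib descendants that recombine immune receptor genes, had at most 1 count in any library.

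**Figure D5:**
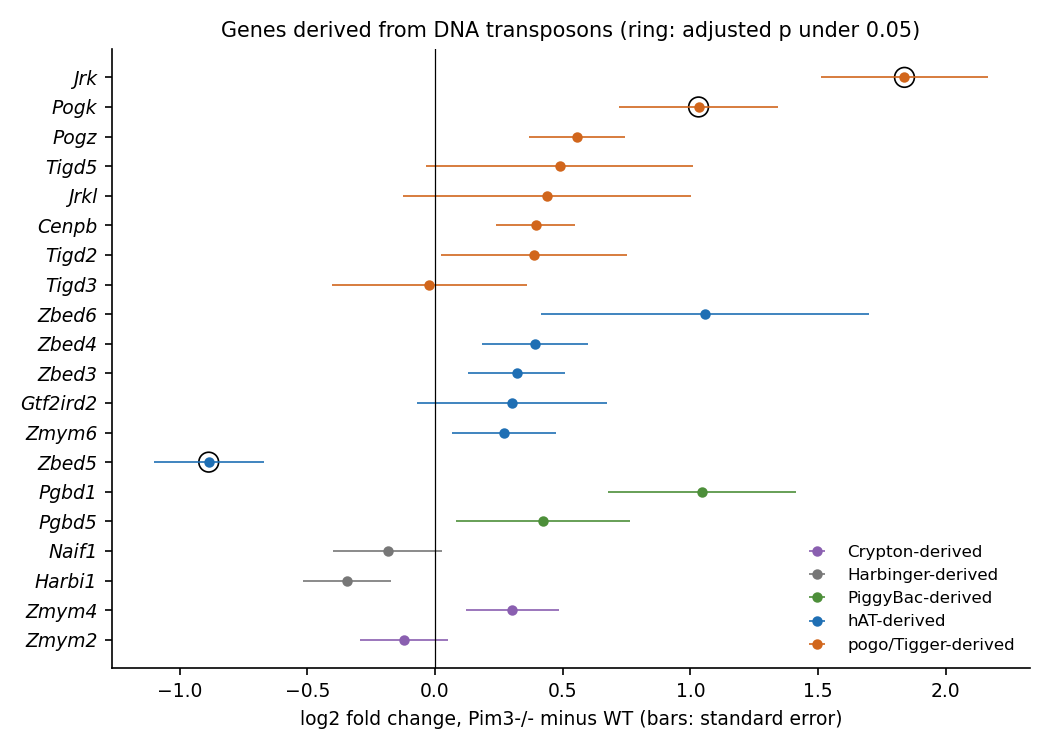
Log2 fold change (Pim3-/- over WT, gene-table scaling) with its standard error for the 20 tested transposon-derived genes, coloured by the superfamily they descend from, with rings around those with an adjusted p under 0.05. Jrk (1.84) and Pogk (1.03) are ringed on the right and Zbed5 (-0.89) on the left.

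Finally, the subfamilies whose pattern over the 4 libraries was most like that of URR1A and Tigger7, the hAT and Tigger subfamilies with the most CPM, were sought among all 827 other tested TEs, by the Euclidean distance of centred log2 CPM. Those nearest to URR1A were ORR1F, RMER17C and PB1D11 at distances of 0.03 to 0.05, and those nearest to Tigger7 were RMER13A2, L1ME1 and L1MA9, each at 0.05, with median distances of 0.47 and 0.46 over all TEs. The 6 have log2 fold changes between -0.04 and 0.06. None is a DNA transposon: they are LTR, SINE and LINE subfamilies, and with 4 libraries the likeness says only that all of them were level.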

How the data were processed

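RNA-seq libraries of 2 WT samples and 2 Pim3-/- clones were analysed. Gene and TE tables hold raw counts, as the authors deposited them without normalization. The paper names Cutadapt, Hisat2, the mm10 assembly, Ensembl genes and RepeatMasker TEs, while the submitters' processing notes list Trim Galore, STAR, featureCounts and GRCm38. The counter's settings for strand and for reads with several locations, which decide how reads are split among related subfamilies, are not given in the sources used here.

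Counts were used as deposited. Rows were filtered by count (filterByExpr, edgeR 4.0.16, at least 10, total at least 15), leaving 828 TEs and 18444 genes. After TMM scaling within each table, the edgeR quasi-likelihood test was run on Pim3-/- against WT, with p-values adjusted (Benjamini-Hochberg) over the whole table and called at 0.05. P-values measure the spread between these 2 libraries per group. Superfamilies follow the subfamily names and the RepeatMasker family labels of the study's TE list. Sums were compared with exact permutation tests over libraries. Named subfamilies are those called, the 5 hAT and 5 Tigger rows with the most CPM, the 3 highest and 3 lowest fold changes, and each tested Arthur, Zaphod, Cheshire, Looper, Kanga, URR1 and MARNA row; genes are those called and the 3 with the most CPM. Likeness was taken to the hAT and Tigger rows with the most CPM, and MERVL-int was the repeat comparator. Tigger17, Tigger17c, Tigger9b, Charlie1b, Charlie8, Charlie11, Kanga1d, Gtf2ird2 and the other DNA transposons called were named after their values were seen. The members and lists were chosen with earlier results of these data known. The scripts were tested on simulated counts. Alternatives were other scalings and filters, the Wald test of DESeq2 1.42.0, a replicate block and leaving out each library, where a lone library was assumed to vary like the other group. R 4.3.3 was used. Figures were drawn with matplotlib 3.10.9. Gene positions are from GENCODE on GRCm38. Consensus sequences and single copies of the subfamilies were not analysed here.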

Additional observations from a re-analysis of the deposited data

How the results depend on the processing

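The number of fossils called was small and changed with the settings. The 1 higher and 1 lower call became 2 and 0 with TE totals, 0 and 1 with a minimum of 10 counts in every library (which removes Arthur1A), 0 and 0 without a filter, and 0 and 0 with the Wald test of DESeq2 (15 and 34 of all TEs). For TE totals and the changed filters no count over all TEs is given, so a change of the whole table cannot be told apart. Scaling by the gene table gave 10 and 1, beside 174 and 34 of all 828 TEs, in a fit with infinite prior degrees of freedom, and with the prior of the TE fit the counts were 2 and 0. With 1 library left out there were 0 to 4 higher and 0 to 5 lower calls, 0 and 0 without either WT replicate (as for all TEs), 4 and 5 without Pim3-/- replicate 1 (70 and 92 of all TEs), and 2 and 2 without Pim3-/- replicate 2 (55 and 79 of all TEs). Replicate numbers did not pair the libraries: over tested TEs the difference between replicates 1 and 2 in WT correlated at 0.02 with that in Pim3-/-. A replicate block gave 2 and 3 calls, again with an infinite prior, against 45 higher and 63 lower of all tested TEs.

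Small values changed direction with the scaling, the filter or the library left out. The median of hAT subfamilies was 0.30 with TE totals, 0.38 with the gene table and -0.0075 with a minimum of 10 counts in every library, and that of Tigger was 0.0057 with TE totals and 0.087 with the gene table. The Tigger sum turned to 0.12 with TE totals and 0.20 with the gene table, where the hAT-Charlie sum (0.27) and the Kanga sum (0.65) passed the test under the infinite prior. With 1 library left out the sum of hAT-Charlie ran from -0.030 to 0.031, that of hAT-Tip100 from -0.10 to 0.26 and that of PiggyBac from -0.080 to 0.25. For URR1A, URR1B, Charlie1a, Charlie5, Charlie1, Tigger5b and Arthur1 the log2 fold change became 0.18, 0.17, 0.14, 0.15, 0.13, 0.18 and 0.054 with TE totals, and 0.26, 0.26, 0.23, 0.23, 0.21, 0.27 and 0.14 with the gene table under either prior. Kanga2_a and Kanga1 became 0.033 and 0.067 with the gene table. A minimum of 10 counts in every library put URR1A, URR1B and Tigger5b at 0.028, 0.020 and 0.030. With 1 library left out URR1A ran from -0.031 to 0.057, URR1B from -0.062 to 0.037, Charlie1a from -0.087 to 0.029, Charlie5 from -0.087 to 0.042, Charlie1 from -0.096 to 0.0098, Tigger7 from -0.011 to 0.10, Tigger5b from -0.047 to 0.053, Arthur1 from -0.79 to 0.31, Looper from -0.070 to 0.26 and Kanga1 from -0.39 to 0.098.

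Among other DNA transposons the 2 higher calls became 0 with DESeq2, 15 of 70 with the gene table (174 of 828 for all TEs) and 6 with the replicate block (45 of 828), the 3 lower calls became 1 with DESeq2, and the median became 0.41 with the gene table. Of the transposase-derived genes, 9 were higher and 0 lower with gene table totals, when 6594 genes in all were higher and 1094 lower. With a minimum of 10 counts in every library 4 were higher, a setting for which no count over all genes is given. With 1 library left out the number called higher rose or fell along with that over all tested genes, so it says little about this list. The ratio of members per gene count fell from 1.64 to 1.20 with the TMM factors of the gene table (this alternative was added after the data were seen). The ratios of summed shares and the hAT to Tigger ratio kept their direction under each alternative run for them. The cause of these differences was not tested.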
